A study of Mus musculus with 8 samples.

Results

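The genes described here are 41 mouse genes of the actomyosin system: 25 myosin heavy chains, 2 myosin II light chains and 14 genes for proteins that bind, cap, sever, bundle or regulate actin filaments. They were taken from the read count table of embryonic day 14.5 lenses by gene symbol, out of 43432 gene IDs, and the myosin genes were selected on measured values: the family was picked because it was lower in CKO lenses. The contrast between genotypes therefore chose them, and everything given on that contrast for these 41 genes is a description that supports nothing further. The study set 4 libraries labelled Mettl3_CKO (CKO in the text, replicates a to d) against 4 control libraries (replicates a to d), all from lens at day 14.5. Mettl3 encodes the catalytic subunit of the complex that writes N6-methyladenosine into messenger RNA. The labels name no Cre driver, no strain and no allele of the controls, nor the number of animals or lenses that went into a library. No source states that libraries come from separate animals, so the spread between them may in part be technical. Of the 41 genes, 39 were among the 16241 genes with enough counts to test.

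Myosins are motors that pull on actin filaments. The class II myosins, each built from heavy chains with essential and regulatory light chains, form bipolar filaments that contract actin networks, whereas most other classes work singly as tethers or cargo carriers. Filaments are coated by tropomyosins, capped at their pointed ends by tropomodulins, cut by cofilins with the help of cyclase-associated proteins and bundled by alpha-actinins, and the kinases Rock1 and Rock2 switch class II myosins on. In the lens, actomyosin shapes the invaginating placode and the elongating fiber cells, and tropomodulin with tropomyosin belongs to the membrane skeleton of fibers.

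Libraries held between 19110170 and 56098211 counts. Mettl3 itself was at 12.4 ± 3.25 CPM (counts scaled to library size) in CKO lenses and 24.8 ± 2.94 CPM in control lenses (SD, n = 4 each), with no overlap. Its log2 fold change was -1.02 ± 0.15 (SE; edgeR adjusted p = 0.00259), and the two-sided exact permutation p of 0.0286 was the smallest that its 70 arrangements allow. The 13 lens markers summed to between 127366 and 186932 CPM in CKO libraries and between 163822 and 221291 CPM in control libraries, with 2 of 13 called lower, 11 of 13 below 0, a median log2 fold change of -0.22 and none at 0. Replicates a and b (set 1) and c and d (set 2) have separate runs of records. Titles are written differently between the sets for the controls, and alike for the CKO libraries. The set is a term in the fit, although no label calls it a batch. Libraries of set 1 held 19110170 to 25662135 counts and those of set 2 held 45310168 to 56098211. Set and depth therefore cannot be told apart. Control c stood apart within its group: its endothelial marker sum was 536 CPM, where control a, b and d had 261, 352 and 233 CPM. CKO b did so among the CKO libraries with 715 CPM, where CKO a, c and d had 438, 217 and 269 CPM. Skeletal muscle markers were highest in control a, at 174 CPM. Member counts are therefore given with each library left out. Single genes are given with and without control c, the library at the extreme of its group for the most genes (63.6%). Among the members CKO b was at such an extreme more often, at 79.5% against 69.2% for control c. Some genes are also given without CKO b. In whole lenses, fewer cells of a type and less RNA per cell cannot be told apart.

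Windows before annotated starts of some members are shown first, from RefSeq on GRCm38.p6, the assembly of mm10. Of the 41 genes, 36 were matched, with 45 windows of 250 bases before an annotated start. Myo1d, Myo5b, Myo7b, Rock1 and Tmod3 were not matched. The CArG box, the element bound by serum response factor in many actin genes, was searched on both strands and was present before Myl9, Myo1e and Myl6. That is 3 of the 45 windows, or 6.67%, and 1.47% of all 32851 windows hold it. For Myl9 and Myo1e the stretch outside annotated exons is printed 5′ to 3′ on the gene's strand, with the CArG box alone in capitals. It lies 161 to 152 bases before the start in Myl9 and 32 to 23 bases before it in Myo1e.
Myl9, chr2:156775214-156775419, plus strand: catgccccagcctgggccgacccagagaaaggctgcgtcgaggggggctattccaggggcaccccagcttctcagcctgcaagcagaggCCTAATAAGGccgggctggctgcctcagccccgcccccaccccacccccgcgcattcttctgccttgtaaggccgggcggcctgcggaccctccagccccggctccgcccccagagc
Myo1e, chr9:70207100-70207349, plus strand: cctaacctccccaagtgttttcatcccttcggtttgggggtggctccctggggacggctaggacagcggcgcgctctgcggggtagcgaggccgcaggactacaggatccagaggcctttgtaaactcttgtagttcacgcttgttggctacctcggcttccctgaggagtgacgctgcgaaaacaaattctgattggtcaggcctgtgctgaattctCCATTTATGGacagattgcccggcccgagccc
The box of Myl6, CCTTATATGG, lies 50 to 41 bases before a start and inside an annotated exon, and its surroundings are not printed.

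Tpm2, Myh14 and Myh10 were picked by fold change between genotypes, among called members with a window. Tpm2 and Myh14 had the most negative values of those called lower, and Myh10 the largest of those called higher. That is the contrast that chose the members, so the choice is a description only. Capitals mark GGGCGG in Tpm2, and CCAAT, which reads ATTGG on the other strand, in Myh14 and Myh10. In Myh14 the run TGCTGATTGG joins TGCTGA and ATTGG, which overlap there by a base. The Tpm2 and Myh10 stretches lie inside their own genes and outside annotated exons, so they are intron sequence of longer annotated transcripts. Of the 250 bases before these starts, 106 in Tpm2 and 178 in Myh10 are exonic and are not printed.
Tpm2, chr4:43523596-43523700, minus strand, within the Tpm2 gene: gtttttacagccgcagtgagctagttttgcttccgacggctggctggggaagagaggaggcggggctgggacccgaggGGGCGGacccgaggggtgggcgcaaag
Myh14, chr7:44670844-44671093, minus strand, within the antisense gene 2310016G11Rik: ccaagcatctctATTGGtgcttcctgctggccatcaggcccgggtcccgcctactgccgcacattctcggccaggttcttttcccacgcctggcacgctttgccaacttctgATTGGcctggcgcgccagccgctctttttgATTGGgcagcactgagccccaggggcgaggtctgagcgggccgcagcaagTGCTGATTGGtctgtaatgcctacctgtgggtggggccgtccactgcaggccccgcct
Myh10, chr11:68691843-68691914, plus strand, within the Myh10 gene: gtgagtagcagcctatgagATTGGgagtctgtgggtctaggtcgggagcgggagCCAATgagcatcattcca
Over the 45 windows, GGGCGG or its reverse complement was found in 60% (32.7% of all windows), CCAAT in 33.3% (33.8% of all), TGCTGA in 26.7% (16.1% of all) and TATAAA in 6.67% (12.4% of all). A match describes the letters and is no evidence of binding.

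To compare levels between genes, counts were divided by the kilobases of exon and scaled to a common total per library, on the TPM scale. On this scale the member with the highest mean in control lenses was the cofilin gene Cfl1, at 198 ± 20.6, and its range over the 4 control libraries did not overlap that of the next gene. The essential light chain gene Myl6 followed at 156 ± 21.9, then Cap2, a cyclase-associated protein, at 127 ± 11.3, and the tropomyosin Tpm4 at 94.1 ± 15.6 (SD, n = 4). From Myl6 down to Myo9b the ranges of neighbours overlapped throughout. Of the heavy chains among the members, the highest were Myh9 at 42.8 ± 3.98 and Myh10 at 30.2 ± 3.06, the non-muscle myosins IIA and IIB. Next stood Myo6 at 26.3 ± 3.85 and Myo5a at 25.9 ± 1.93. Heavy chain genes outside the members are not placed on this scale here. Myh14, the third non-muscle class II heavy chain (IIC), was far lower at 2.43 ± 0.349.

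At the low end stood Myo1f, Myo1a, Myo1h, Myo1g, Myo5c and Myo15, each below 1 on the length scale in control lenses. Myo15, a motor of hair cell stereocilia, was at 0.131 ± 0.0446. Myo3a, also a stereocilium motor, had 0 counts in all 8 libraries, which allows up to 0.157 CPM in the library where 3 counts weigh most (counting error only). Its relative Myo3b reached at most 0.140 CPM, in CKO c. These 2 genes had too few counts to test.

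**Figure D1:**
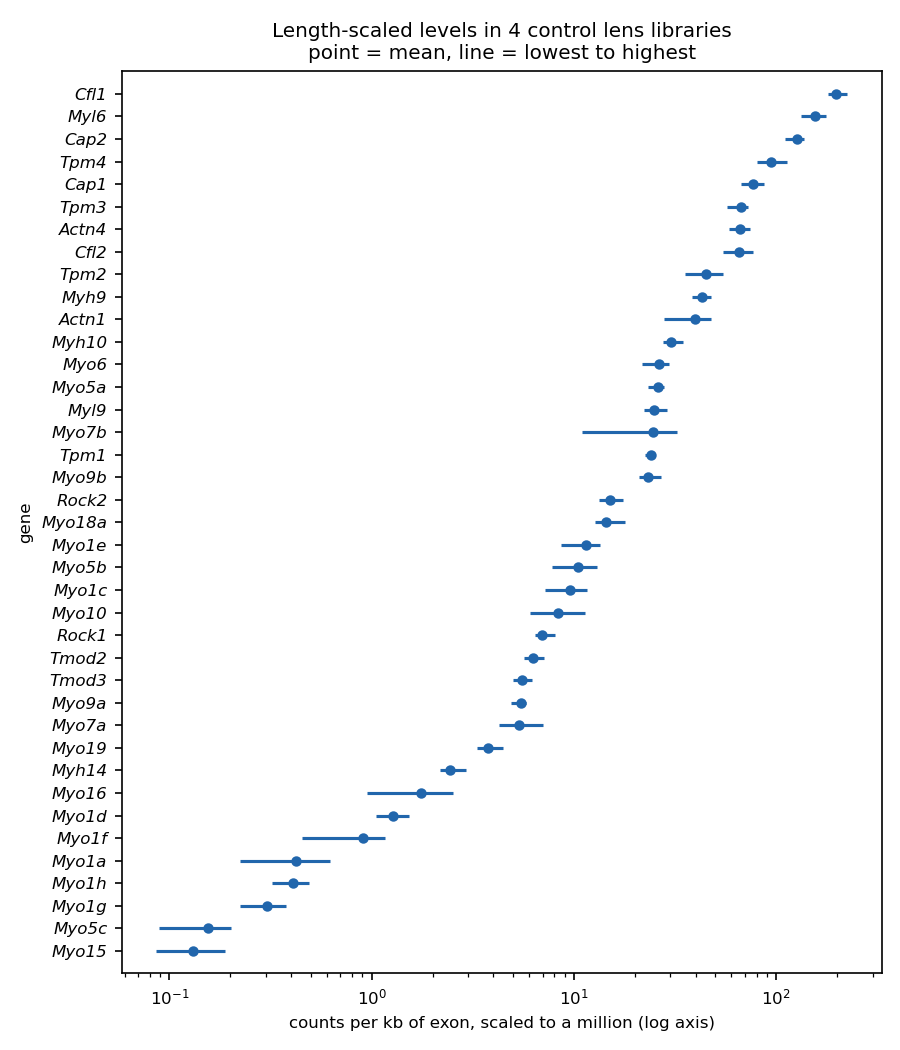
Level of the 39 tested genes in the 4 control libraries, as length-scaled counts (TPM scale, log axis), 1 gene per line, with the mean as a point and the lowest to highest library as a bar. Cfl1 leads at 198 and the order ends with Myo15 at 0.131.

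Between genotypes the 39 genes split in both directions. With genes called at an edgeR adjusted p under 0.05 over all 16241 genes, 7 members were lower in CKO lenses (Myo5a, Myo6, Myo1e, Myh14, Tpm2, Tmod2 and Cap2), 2 were higher (Myh10 and Myo18a) and 30 were not called. Over all genes tested 4.01% were called lower and 6.5% higher. Because the rule used this contrast, nothing is read from the members' counts against that background. The median log2 fold change was -0.15 over the members and -0.03 over all genes, with 22 members below 0 and 17 above. In 6 members every CKO library was below every control library (7.38% of all genes), and in 2 every CKO library was above (8.96% of all genes). These 8 were Myo5a, Myo6, Myh14, Tpm2, Cap2 and Rock1 in the lower direction and Myh10 and Myo18a in the higher.

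Single libraries decided many of these calls. Leaving out 1 library at a time changed the calls over all genes as well as those of the members, and both shares are given. Without CKO a, 5 members were called lower and 2 higher (2.39% and 4.37% of all genes tested). Without CKO b, 3 were lower (Cap2, Myh14 and Tpm2) and 1 higher (Myh10), against 1.72% and 5.18% of all genes. Without CKO c there were 5 lower and 0 higher (1.75% and 3.59%), and without CKO d 3 lower and 0 higher (1.27% and 2.83%). Fewer members were thus called in most of these fits, and fewer genes overall. Without control a, 4 members were lower and 2 higher (2.85% and 5.73% of all genes). Without control b, 1 was lower and 0 higher (1.12% and 3.42%), and the same counts held without control d (0.815% and 2.34%). Without control c, 11 were lower and 9 higher (7.21% and 8.86%). Tpm2 was the member called in all 8 of these fits. With DESeq2 9 members were lower and 2 higher (6.16% and 9.03% of all genes), and with length and GC trends taken out of protein-coding genes 10 were lower and 1 higher (8.18% and 9.73%).

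**Figure D2:**
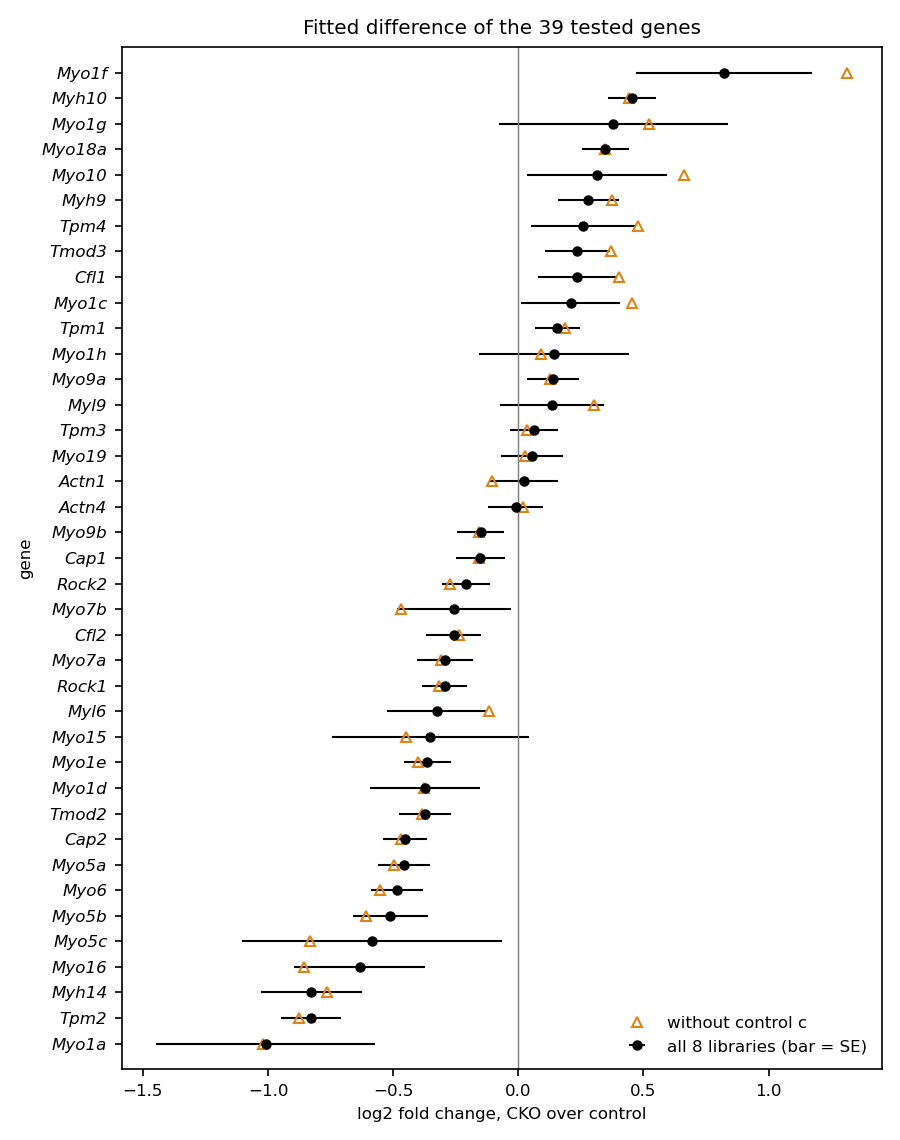
Log2 fold change, CKO over control, of the 39 tested genes: filled points with SE bars from all 8 libraries, open triangles from the fit without control c. Without control c Myo10 lies at 0.66 and Myo1c at 0.45, where all libraries give 0.31 and 0.21, whereas Tpm2 and Cap2 change by little.

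Among the non-muscle class II heavy chains, Myh10 and Myh14 moved in opposite directions. Myh10 (chr11:68691559-68816632, mm10) had 177, 193, 217 and 213 CPM in CKO a to d, against 151, 146, 147 and 139 CPM in control a to d. The CKO libraries all lay above the control libraries, and the CKO libraries of set 2 were the highest. The log2 fold change of 0.46 ± 0.10 (SE) came to 0.30 within set 1 and 0.63 within set 2, and Myh10 was not called without CKO c, CKO d, control b or control d.

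Myh14 (chr7:44605803-44670843) had 3.41, 5.88, 5.14 and 3.88 CPM in CKO a to d, against 8.87, 7.54, 8.89 and 7.29 CPM in control a to d. No CKO library reached the lowest control. Its log2 fold change was -0.83 ± 0.20, nearly the same in set 1 (-0.83) and set 2 (-0.80), and the call ended without CKO a, CKO d, control a, control b or control d. The most abundant of the 3, Myh9, had 292, 370.4, 282 and 303 CPM in CKO a to d, against 257, 253, 289 and 226 CPM in control a to d. Its groups overlapped through CKO c and control c, and its log2 fold change of 0.28 ± 0.12 was not called with all libraries but was called without control c (0.37).

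The light chains did not separate the genotypes. Myl6, the essential light chain, had 225, 264, 128 and 151 CPM in CKO a to d, against 231, 217, 285 and 192 CPM in control a to d. CKO a and b lay within the control values and CKO c and d lay below all of them, so the log2 fold change was 0.11 in set 1 and -0.73 in set 2 (-0.32 ± 0.20 over both). Myl9, a regulatory light chain, averaged 15.2 ± 4.26 CPM in CKO lenses and 13.6 ± 2.62 CPM in control lenses (SD, n = 4 each), with overlap.

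Class V and VI motors carry vesicles and organelles. Myo5a, which moves melanosomes and vesicles towards the barbed ends of filaments (chr9:75071015-75223688), had 125, 106, 143 and 146 CPM in CKO a to d, against 172, 183, 176 and 178 CPM in control a to d. The control libraries were within a narrow band and all CKO libraries were under it, lowest in CKO b. The log2 fold change of -0.46 ± 0.10 divided into -0.64 (set 1) and -0.25 (set 2), and the call ended without CKO b, CKO d, control b or control d. Myo6, the motor of endocytic vesicles that moves towards pointed ends (chr9:80165031-80311729), had 101, 95.5, 101 and 121 CPM in CKO a to d, against 149, 139.9, 134 and 162 CPM in control a to d. Again no library overlapped, and in both genotypes replicate d was the highest. For Myo6 the fitted log2 fold change was -0.49 ± 0.10 (-0.58 in set 1, -0.38 in set 2), and the call ended without CKO b, CKO c, control b or control d.

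Myo5b, which carries recycling endosomes, had 27.2, 36.4, 28.1 and 39.7 CPM in CKO a to d, against 53.0, 45.9, 38.6 and 50.2 CPM in control a to d. Only CKO d and control c overlapped. The log2 fold change of -0.51 ± 0.15 was not called with all libraries, and was called without control c (-0.61) or without CKO d. With all libraries it was also called under DESeq2, with no filter, with no set term and with length and GC trends taken out of protein-coding genes. The call was there too with those trends left in the same protein-coding genes. Myo5c, a motor of exocrine epithelia, was at most 0.887 CPM in any library and gave -0.59 ± 0.52.

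The class I myosins link membranes to actin and differed among themselves. Myo1e, a long-tailed member active in endocytosis (chr9:70207350-70399766), had 26.7, 24.9, 20.6 and 20.9 CPM in CKO a to d, against 32.0, 33.8, 25.1 and 28.7 CPM in control a to d. Within each set both CKO libraries were below both controls, although CKO a exceeded control c. Myo1e had a log2 fold change of -0.36 ± 0.09 (-0.37 in set 1, -0.34 in set 2), and in the leave-one-out fits it was called without control c alone. It also lost the call with no filter, with no set term and with the replicate letter as a block. Myo1c, a motor of plasma membrane tension and transporter delivery, had 32.5, 44.7, 27.1 and 32.8 CPM in CKO a to d, against 29.2, 27.7, 39.1 and 21.5 CPM in control a to d. CKO b and control c were the highest libraries of their groups. With 0.21 ± 0.20 it was not called, but it was called without control c (0.45).

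The other 5 class I genes averaged below 5 CPM. Myo1f, a motor of blood cells and macrophages, had 6.40, 4.96, 2.28 and 2.56 CPM in CKO a to d, against 2.33, 2.07, 2.95 and 1.02 CPM in control a to d. Its log2 fold change of 0.82 ± 0.35 was called in 1 leave-one-out fit, without control c (1.32). Myo1f was also called with no filter on low counts and in set 1 alone. The macrophage marker sum moved with it: 117, 124, 59.2 and 52.0 CPM in CKO a to d, against 46.7, 51.4, 50.2 and 33.8 CPM in control a to d, with 4 of 11 markers called higher and none at 0, and its part in the result was not tested. Myo1a (-1.01 ± 0.44), Myo1d (-0.37 ± 0.22), Myo1g (0.38 ± 0.46) and Myo1h (0.14 ± 0.30) were not called. Myo1h shares 25.8% of its exon bases with Kctd10 on the opposite strand, which averaged 40.5 CPM, and the strand setting of the counting is not given in the sources used here.

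Motors of cell protrusions gave no call in the edgeR fit of all libraries. Myo10, which builds filopodia, had 55.8, 68.9, 34.4 and 42.7 CPM in CKO a to d, against 35.7, 36.2, 58.2 and 27.8 CPM in control a to d. CKO b and control c were again highest, the groups overlapped, and the log2 fold change was 0.31 ± 0.28 with all libraries and 0.66, then called, without control c. Myo7b, a motor of microvillus tips, had 62.7, 73.4, 62.0 and 45.2 CPM in CKO a to d, against 81.1, 102, 37.0 and 77.4 CPM in control a to d. Control c was the lowest of all 8 libraries here, and the log2 fold change of -0.26 ± 0.23 became -0.47, then called, without it. Myo7a (-0.29 ± 0.11) and Myo15 (-0.35 ± 0.39) were not called, although Myo7a was with length and GC trends taken out (-0.37).

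Of the remaining heavy chains, Myo18a, a myosin of the Golgi and of actomyosin filaments without motor activity of its own (chr11:77763246-77865980), was called higher. It had 127, 141, 138 and 137 CPM in CKO a to d, against 119, 106, 104 and 98.0 CPM in control a to d, with no overlap. Control a came closest to the CKO libraries. The fitted log2 fold change was 0.35 ± 0.09 (0.23 in set 1, 0.48 in set 2). The call ended without CKO b, CKO c, CKO d, control b or control d, and also in the fit with the length and GC trends of the libraries taken out (0.24). It was lost as well with no filter and with the replicate letter as a block.

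The class IX motors carry a domain that switches small GTPases off. Myo9a had 33.4, 27.6, 44.3 and 40.9 CPM in CKO a to d, against 30.4, 30.3, 36.3 and 34.5 CPM in control a to d, and both genotypes were higher in set 2. Myo9b had 65.4, 70.9, 75.5 and 76.1 CPM in CKO a to d, against 84.1, 81.9, 79.7 and 73.8 CPM in control a to d. Neither was called (0.14 ± 0.10 for Myo9a and -0.15 ± 0.09 for Myo9b), and Myo9b was -0.30 in set 1 and 0.02 in set 2. Myo16, known from neurons, averaged 3.96 ± 0.922 CPM in CKO lenses and 6.27 ± 1.86 CPM in control lenses (SD, n = 4 each). Its log2 fold change of -0.63 ± 0.26 was called in 1 leave-one-out fit, without control c (-0.86), and Myo19, the mitochondrial myosin, gave 0.06 ± 0.12.

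**Figure D3:**
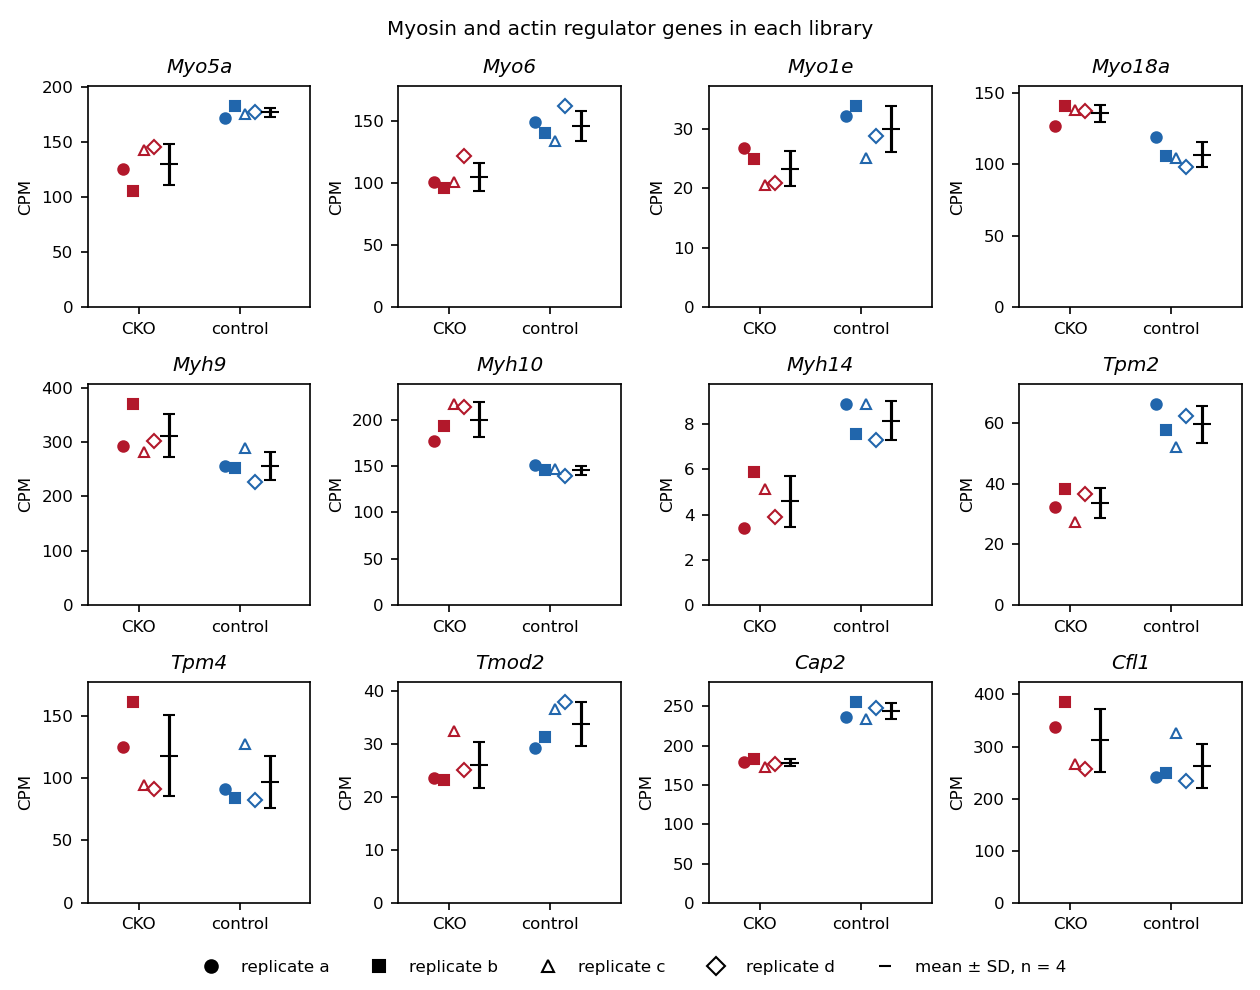
CPM (vertical axis, from 0) of 12 genes in the CKO libraries, left, and control libraries, right, with symbols for replicates a to d and the mean ± SD (n = 4) beside each group. Tpm2, Cap2, Myo5a, Myo6 and Myh14 lie lower in every CKO library, Myh10 and Myo18a higher, and CKO b and control c are the highest of their groups for Tpm4 and Cfl1.

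The tropomyosin that separated the genotypes was Tpm2, the beta-tropomyosin of muscle and of many other cells (chr4:43514711-43523765). It had 32.3, 38.3, 27.4 and 36.6 CPM in CKO a to d, against 66.4, 57.8, 52.2 and 62.5 CPM in control a to d. The highest CKO library stayed below the lowest control. The difference of -0.83 ± 0.12 (log2) was -0.83 within set 1 and -0.80 within set 2, and it kept its call in all 8 leave-one-out fits. Skeletal muscle markers summed to 35.4, 42.4, 18.5 and 53.0 CPM in CKO a to d, against 174, 18.5, 80.1 and 49.7 CPM in control a to d, with overlap. None of the 12 tested was called, all 12 lay below 0, with a median log2 fold change of -1.05 (-1.38 in set 1, -0.79 in set 2), and Myf5 and Tnnc2 were under 1 CPM in every library. Their part in the Tpm2 difference was not tested.

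The other 3 tropomyosins were not called. Tpm1 had 77.8, 76.7, 78.9 and 89.5 CPM in CKO a to d, against 65.9, 69.2, 80.9 and 74.2 CPM in control a to d (0.16 ± 0.09). Tpm3 had 189, 211, 201 and 184 CPM in CKO a to d, against 179.6, 194, 177 and 201 CPM in control a to d (0.06 ± 0.10). Both overlapped between genotypes. Tpm4 had 125, 161, 94.3 and 91.3 CPM in CKO a to d, against 91.6, 84.3, 127 and 82.7 CPM in control a to d, highest in CKO b and in control c of their groups. Tpm4 gave 0.26 ± 0.21 with all libraries, and 0.48, then called, without control c.

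Tropomodulins cap the pointed ends of tropomyosin-coated filaments. Tmod2 (chr9:75565621-75611325) had 23.6, 23.2, 32.6 and 25.0 CPM in CKO a to d, against 29.2, 31.3, 36.6 and 38.1 CPM in control a to d. CKO c exceeded controls a and b, but within each set both CKO libraries lay below both controls. The log2 fold change of -0.37 ± 0.10 was called with all libraries, and in the leave-one-out fits without CKO c or without control c only. In edgeR, Tmod2 was not called with RLE scaling, with no set term or with the replicate letter as a block. The DESeq2 test did call it. Tmod3 had 32.3, 40.1, 30.8 and 32.6 CPM in CKO a to d, against 28.1, 26.5, 35.0 and 25.6 CPM in control a to d. Here control c alone reached into the CKO values, and 0.24 ± 0.13 became 0.37, then called, without it.

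The cyclase-associated proteins free cofilin-bound actin monomers for new rounds of assembly. Cap2 (chr13:46501848-46650281) had 179.6, 183, 173 and 176 CPM in CKO a to d, against 237, 256, 235 and 248 CPM in control a to d. Both groups were tight, at 178 ± 4.37 CPM in CKO lenses and 244 ± 10.02 CPM in control lenses (SD, n = 4 each). The log2 fold change was -0.46 in set 1 and -0.43 in set 2, and the call held in 5 of 8 leave-one-out fits, ending without CKO d, control b or control d. Its relative Cap1 had 102, 131, 105 and 107 CPM in CKO a to d, against 127, 126, 119 and 123 CPM in control a to d. CKO b was above every control for Cap1, and its log2 fold change of -0.15 ± 0.10 was not called.

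Cofilins sever filaments. Cfl1, the non-muscle form, had 337, 386, 267 and 257 CPM in CKO a to d, against 241, 249.6, 326 and 233 CPM in control a to d. The CKO libraries of set 1 were the highest 2 and control c was next, and the log2 fold change of 0.23 ± 0.16 became 0.40, then called, without control c. Cfl1 shares 16.5% of its exon bases with Snx32 on the opposite strand, at 16.5 CPM. Cfl2, the muscle form, had 89.5, 67.1, 84.1 and 88.6 CPM in CKO a to d, against 85.4, 84.6, 113 and 114 CPM in control a to d, with -0.26 ± 0.11, called in 1 leave-one-out fit, without CKO a.

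Alpha-actinins and the Rock kinases were not called in the edgeR fit of all libraries. Actn1 had 102, 88.4, 119 and 99.0 CPM in CKO a to d, against 109.6, 105, 78.5 and 109.5 CPM in control a to d, and its fitted difference was 0.02 ± 0.13. Actn4 had 175, 234, 165 and 170.0 CPM in CKO a to d, against 188, 200.1, 183 and 175 CPM in control a to d (-0.01 ± 0.11). Control c was the library farthest from its group for Actn1, and CKO b for Actn4. Rock1 had 47.1, 42.5, 51.7 and 48.9 CPM in CKO a to d, against 52.0, 55.4, 59.8 and 66.2 CPM in control a to d. All its CKO values were below all its control values, by as little as CKO c from control a. Its -0.29 ± 0.09 was not called in that edgeR fit, but was without control c (-0.32). With all libraries Rock1 was called under upper quartile scaling and under DESeq2. In protein-coding genes it was called with length and GC trends taken out and also with them left in. Rock2 had 77.1, 71.3, 97.5 and 89.6 CPM in CKO a to d, against 88.3, 93.0, 93.9 and 111 CPM in control a to d, overlapped, and gave -0.21 ± 0.10.

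Without control c, 11 members were called lower and 9 higher, and the 9 genes called with all libraries were all among them. That fit tested 15889 genes and is the one of the 8 with the most calls over all genes. The added genes in the lower direction were Myo5b, Myo7b, Myo16 and Rock1. In the higher direction the 7 added were Myh9, Myo10, Myo1c, Myo1f, Tpm4, Tmod3 and Cfl1. Without CKO b instead, none of these added genes was called. The log2 fold change was then 0.18 for Myo10, 0.085 for Myo1c, 0.21 for Myh9 and 0.83 for Myo1f. With all libraries these genes gave 0.31, 0.21, 0.28 and 0.82. Control c was the highest or lowest of the 4 controls for 27 of the 39 members, a share of 69.2%, and for 63.6% of all genes. CKO b was so among the CKO libraries for 31 members, or 79.5%, and for 57.8% of all genes, and CKO c for 22 members, or 56.4%, and for 58.5% of all genes.

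In 6 members (Myo1c, Myo10, Myl6, Myl9, Tmod3 and Tpm4) the highest 2 of the 8 libraries by CPM were CKO b and control c, a pattern looked for after the values were seen; 6.43% of all genes have it. The same 2 libraries led the endothelial marker sum, at 715 CPM in CKO b and 536 CPM in control c, and 7 of the 9 endothelial markers had the pattern, none being at 0. They also led the erythroid marker sum, at 4082 CPM in CKO b and 2216 CPM in control c, with the pattern in 6 of 9 erythroid markers. In the other libraries that sum was 962, 441 and 484 CPM in CKO a, c and d, against 2093, 934 and 575 CPM in control a, b and d. For smooth muscle and pericytes the 11 markers summed to 416, 487, 337 and 357 CPM in CKO a to d, against 244, 251, 357 and 212 CPM in control a to d. Of the 10 tested, Notch3 was called higher. Cnn1 and Myh11, which define smooth muscle, were under 1 CPM in every library. The part of these cells in the result was not tested.

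**Figure D4:**
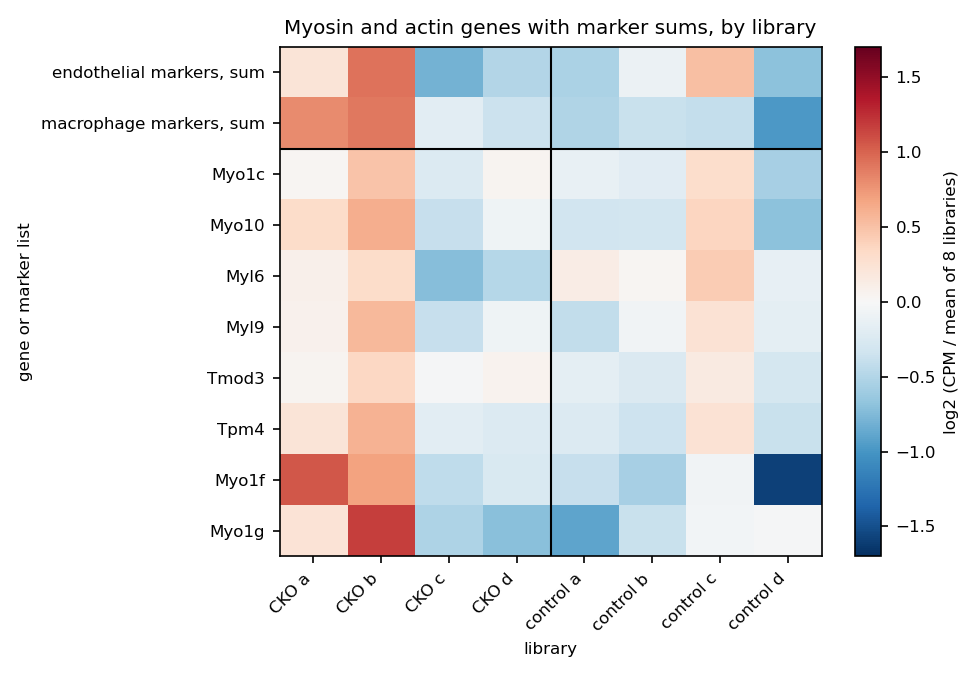
CPM of 8 genes and summed CPM of 2 marker lists in each library, as log2 of the value over its mean in the 8 libraries (colour), with CKO libraries left and control libraries right. CKO b and control c are the reddest columns for the endothelial sum and for Myo1c, Myo10, Myl6, Myl9, Tmod3 and Tpm4, and Myo1f and Myo1g are highest in CKO a and b.

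Whether the genotype difference itself differed between the sets was tested with an interaction term, a contrast that the choice of genes did not use. With all libraries 0 of 39 members and 0 of 16241 genes (0%) passed edgeR's test, against 2662 genes and 5 members at an unadjusted p under 0.05. The lowest adjusted p among the members was 0.174, for Myl6, whose log2 fold change was lower in set 2 than in set 1 by 0.90, followed by Tpm4 (difference -0.88, adjusted p = 0.182) and Myo1g (difference -1.98, adjusted p = 0.205). Tests of this contrast depended on the filter and on control d. With no filter on low counts 918 genes passed (3.4% of 26992), among them Tpm4 (-0.84, adjusted p = 0.00485), Myl6 (-0.86, adjusted p = 0.00656) and Myo10 (-0.91, adjusted p = 0.00718). Without control d, 1984 genes (12.4%) and 9 members passed, with Myl6, Tpm4, Myo10, Myo1f, Myl9, Cfl1 and Myo1c more negative in set 2 and Actn1 and Myo7b more positive.

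The difference between the sets at the same genotype was the other contrast independent of the rule. It was called for 69 of 16241 genes (0.425%) and for 0 members. At an unadjusted edgeR p under 0.05 stood 2121 of the 16241 genes and 7 of the 39 members. Myo9a gave the lowest adjusted p, 0.195, at 0.35 ± 0.10 higher in set 2 on the log2 scale, and Myo1e followed at 0.30 ± 0.09 lower (adjusted p = 0.212). Without control c, where 4.08% of 15889 genes passed this test, Myl6, Myo10 and Myo1f were called lower in set 2, and with no filter on low counts (2.51% of 26992 genes) Myo7b was.

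The rest of the myosin family is the complement of a choice made on this contrast and is described only. Of 23 further heavy and light chain genes, 16 were tested, 15 of these lay below 0, and the median log2 fold change was -0.52, against -0.03 over all genes. The skeletal muscle markers given above moved the same way (12 of 12 below 0, median -1.05, highest sum in control a), and their part was not tested. Called lower were Myh7b, a myosin of slow fibers, at 89.0 ± 10.3 CPM in CKO lenses and 123.7 ± 11.9 CPM in control lenses (-0.48 ± 0.12), and Myo18b, a muscle relative of Myo18a, at 49.2 ± 13.1 CPM in CKO lenses and 72.6 ± 16.9 CPM in control lenses (-0.56 ± 0.15; SD, n = 4 each). Both lost the call in at least 5 of 8 leave-one-out fits. With members and the others together, 6 of 31 tested heavy chain genes were called lower and 2 higher (4.01% and 6.5% over all genes), with a median of -0.34 (-0.03 over all genes).

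Other genes of the actin system were taken from lists, and here adjusted p-values (edgeR, over all genes) are given. Of 151 such genes outside the members, 145 were tested, 9 were higher and 4 lower in CKO lenses (backgrounds of 6.5% and 4.01%), and the median was -0.02. Among 22 kinases and phosphatases acting on myosin and cofilin, 4 were higher and none lower. Mylk, the kinase that activates class II myosin through its regulatory light chain, had 36.4, 39.7, 33.0 and 41.3 CPM in CKO a to d, against 20.9, 23.0, 23.4 and 16.5 CPM in control a to d (log2 fold change 0.85 ± 0.13, adjusted p = 0.00334). Ssh1, a phosphatase that activates cofilin, had 50.6, 44.6, 75.0 and 65.9 CPM in CKO a to d, against 33.0, 36.0, 35.1 and 38.9 CPM in control a to d (0.70 ± 0.12, adjusted p = 0.00597). Neither overlapped between genotypes, and both kept the call whichever library was left out. Its relative Ssh2 (0.61 ± 0.12, adjusted p = 0.0111) lost the call without control d (adjusted p 0.00277 to 0.0578 over the 8 fits). Tesk1, a kinase that inactivates cofilin (0.61 ± 0.14, adjusted p = 0.0224), lost it without CKO c, CKO d or control d (adjusted p 0.0241 to 0.0964). Tesk1 shares 32.1% of its exon bases with Cd72 on the opposite strand, at 0.769 CPM.

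Of 13 small GTPases that control the actin cytoskeleton, 2 were higher and 1 lower. Rhou averaged 14.7 ± 4.69 CPM in CKO lenses and 6.30 ± 0.813 CPM in control lenses (1.19 ± 0.17, adjusted p = 0.0025), and Rhog 24.3 ± 1.82 CPM in CKO lenses and 14.9 ± 0.326 CPM in control lenses (0.71 ± 0.10, adjusted p = 0.00265; SD, n = 4 each). Both held in all 8 leave-one-out fits, and in neither did the groups overlap. Rnd2, an atypical member, was lower (-0.49 ± 0.14, adjusted p = 0.0489) and kept its call only without control c (adjusted p 0.00265 to 0.18 over the 8). Rnd2 shares 11.4% of its exon bases with Vat1 on the opposite strand, at 90.2 CPM. Among 14 formins, which nucleate unbranched filaments, Fhod3 was higher, at 31.2 ± 6.91 CPM in CKO lenses and 16.3 ± 2.19 CPM in control lenses (0.92 ± 0.16, adjusted p = 0.00604), and was called in all 8. Its effect was 0.54 in set 1 and 1.29 in set 2.

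Crosslinkers and membrane anchors gave 1 lower and 1 higher of 23. Ctnna2, the neuronal alpha-catenin that ties cadherins to actin, had 26.0, 25.2, 16.6 and 20.6 CPM in CKO a to d, against 43.2, 40.4, 40.6 and 40.1 CPM in control a to d (-0.92 ± 0.12, adjusted p = 0.00138), and kept the call in all 8 leave-one-out fits. Shroom4 was higher (0.63 ± 0.17, adjusted p = 0.0398) and lost its call in 6 of 8 fits (adjusted p up to 0.14). Actn3, the alpha-actinin of fast muscle fibers and a relative of the members Actn1 and Actn4, had 10.5, 14.4, 9.06 and 12.8 CPM in CKO a to d, against 22.8, 22.6, 21.5 and 20.6 CPM in control a to d. Its log2 fold change was -0.91 ± 0.14 (adjusted p = 0.0038), called in all 8 fits. For Ctnna2 and Actn3 the highest CKO library thus lay under the lowest control.

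Among 20 tested capping, severing and monomer-binding genes Capza2, a barbed-end capping subunit, was lower (-0.41 ± 0.10, adjusted p = 0.0273), with the call lost in 5 of 8 fits (adjusted p up to 0.104). Of 15 nucleation promoting factors Nckap1l, the blood cell subunit of the WAVE complex, was higher (0.91 ± 0.18, adjusted p = 0.0108), lost without CKO d or control d (up to 0.0514); the macrophage markers given above are higher in CKO libraries too, and their part was not tested. Of 20 tested partners and chaperones of unconventional myosins Espn, an actin bundler of stereocilia, was lower (-0.50 ± 0.13, adjusted p = 0.0312) and kept its call only without CKO c or control c (0.00204 to 0.126 over the 8).

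None of the 10 Arp2/3 complex genes, 5 tested actins or 3 tested genes of serum response factor and its cofactors was called. Actb, the cytoplasmic beta-actin, averaged 1099 ± 102 CPM in CKO lenses and 1121 ± 89.8 CPM in control lenses (-0.03 ± 0.12, adjusted p = 0.902), and Actg1 992 ± 53.3 CPM in CKO lenses and 998 ± 138 CPM in control lenses (-0.01 ± 0.12, adjusted p = 0.977; SD, n = 4 each). Acta2 gave 0.32 ± 0.27 (adjusted p = 0.489), and the striated muscle actins Acta1 and Actc1 gave -1.17 ± 1.06 and -1.46 ± 1.03 (adjusted p = 0.547 and 0.43), with control a far above the rest in the muscle marker sum. Srf was at 0.08 ± 0.13 (adjusted p = 0.749), Mrtfb at 0.24 ± 0.11 (adjusted p = 0.185) and Mrtfa at 0.37 ± 0.13 (adjusted p = 0.0984, 0.0403 to 0.288 over the leave-one-out fits, passing without control a alone). Of the relatives of member families, Tmod1, the tropomodulin of lens fibers, gave -0.34 ± 0.10 (adjusted p = 0.0555) and passed without control c alone (adjusted p 0.0121 to 0.193 over the 8 fits). Tmod1 shares 32.6% of its exon bases with Tstd2 on the opposite strand, at 24.5 CPM. Dstn gave -0.21 ± 0.16 (adjusted p = 0.437), Actn2 -0.44 ± 0.22 (0.245), Lmod1 0.59 ± 0.36 (0.329) and Tmod4 -0.58 ± 0.55 (0.546).

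**Figure D5:**
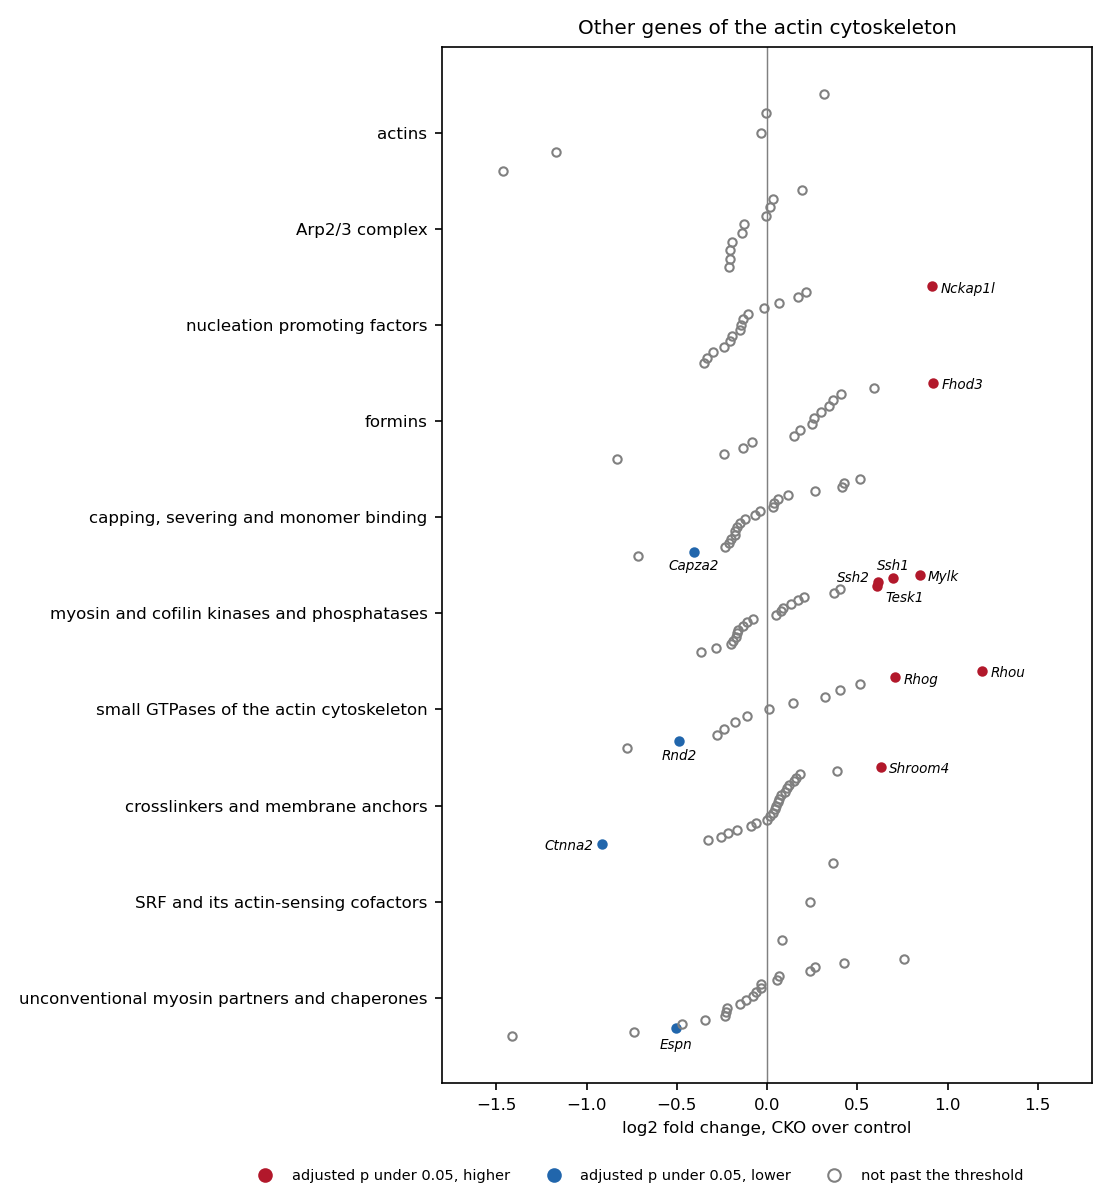
Log2 fold change, CKO over control, of the tested genes of 10 actin cytoskeleton lists, with 1 point per gene and called genes filled and named. Mylk, Ssh1, Rhou, Rhog and Fhod3 lie to the right and Ctnna2 to the left, whereas no gene of the Arp2/3 complex, the actins or the serum response factor group is filled.

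Transcript features that the rule did not use are given as descriptions. The longest annotated transcript of each gene was used. Over the 39 tested members its median length was 5354 bases, against 3160 over all tested genes. Its median GC content was 51.9%, against 49.8%. GGACT, a common core of the sequence that the Mettl3 complex methylates, occurred at a median of 0.94 per kilobase in the tested members and 1.02 per kilobase over all tested genes. Among the members called lower it ranged from 0.46 per kilobase in Tpm2 (1 site) and in Myh14 (3 sites) to 0.91 in Tmod2 (9 sites) and 1.49 in Myo1e (7 sites). The 2 called higher had 0.90 per kilobase (Myh10) and 1.60 (Myo18a), so the densities of the groups overlapped. No methylation was measured here.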

How the data were processed

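Polyadenylated RNA of 8 lens libraries (4 Mettl3_CKO, 4 control) was sequenced. The authors deposited 1 table of raw read counts per Ensembl gene, and the values were whole numbers, not normalised. CASAVA, HISAT2, featureCounts and the build mm10 are named without versions, per the submitters' processing notes. Annotation release and strand setting: not given in the sources used here. Of 43432 IDs, 42548 matched GENCODE M21 and 884 did not. The test was that of edgeR 4.0.16 under R 4.3.3 (filterByExpr, minimum count 10 and minimum total 15; TMM; robust quasi-likelihood F-test with set and genotype as terms; Benjamini-Hochberg over 16241 genes; adjusted p under 0.05 called). CPM are counts over the TMM-scaled library size. Standard errors were taken from the fold change and its F value. Second fits gave the interaction of genotype and set, and each set alone. Alternatives were RLE and upper quartile scaling, no filter, no set term, a replicate block, DESeq2 1.42.0, limma 3.58.1 (voom), removal of length and GC trends, and leaving out each library. The scripts were tested on simulated data with 200 changed genes.

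The members and all gene lists were chosen with earlier results of these data known. Members were given with all library values at a mean of at least 20 CPM, when called or when the genotypes did not overlap. Of each list up to 4 called genes by smallest p, and all genes of lists with at most 8 tested, were named; 1 listed gene is not reported here. With 19110170 to 56098211 counts per library, counting error is small for all but the rarest members.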

Additional observations from a re-analysis of the deposited data

Results flagged for a closer look

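Within groups of 4 libraries, 138 groups of values were examined for a library far from the other 3, and chance alone gives about 1 in 20. A library stood apart in 5. Among the members, Myo15 was at 0.846 CPM in CKO b, above the other CKO libraries; Actn4 was at 234 CPM in CKO b, also above them; and Actn1 was at 78.5 CPM in control c, below the other controls. Outside the members, in control a, Actb was at 987 CPM, below the other controls, and Ctnna2 was at 43.2 CPM, above them.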

How the results depend on the processing

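The median log2 fold change of the members stayed between -0.19 and -0.10 under every alternative run, and Mettl3 kept its direction and call in all of them. Against 1706 genes called with all libraries, the replicate block gave 665 and leaving out 1 library 503 to 2553. Set 1 alone gave 1365 of 15816 genes tested, and set 2 alone 858 of 17192. Members called lower (7) numbered 2 with the replicate block (Myo6 and Tpm2), 6 in set 1 alone, 0 in set 2 alone, and 1 to 11 with 1 library left out. Members called higher (2) numbered 0 with the replicate block, 1 with length and GC trends removed, 4 in set 1 alone, 1 in set 2 alone, and 0 to 9 with 1 library left out. For the interaction, 918 genes and 3 members passed with no filter, and 0 to 1984 genes and 0 to 9 members with 1 library left out. For the set difference, with 69 genes and 0 members, 678 genes and 1 member (Myo7b) passed with no filter, and 16 to 649 genes and 0 to 3 members with 1 library left out. The share of calls over all genes that were higher was 61.8%, against 75.9% with the replicate block, 57.6% in set 1 alone and 81.2% in set 2 alone. Replicate letters do not pair the libraries: deviations of same-lettered libraries correlated at -0.06, 0.09, -0.19 and 0.28 for a to d, and of the 4 letters d alone matched best with itself. With length and GC trends left in the same protein-coding genes, an alternative chosen after seeing the data, 9 members were lower and 2 higher. For named genes outside the members, 476 values kept their direction and side of the threshold, 66 lost a call and 9 gained one. For single members, 31 of the fold changes moved by more than the spread between libraries and 710 did not. The cause of these changes was not tested. No direction reversed among called results. Depth limits what can be said of members near 1 CPM or below.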
